A study of Homo sapiens with 12 samples.

Results

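The genes described here are the 33 enzymes of nucleotide, one-carbon and polyamine synthesis listed by name from the purine, pyrimidine, folate and polyamine pathways. They were chosen by symbol, as genes known to be driven by the transcription factor MYC. No value in these files entered the rule, but earlier results of these data were known when the genes were chosen. All 33 were found among the 58288 genes of each expression table.

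The study sequenced RNA, after removal of ribosomal RNA, from 2 human T-cell acute lymphoblastic leukemia (T-ALL) lines, HPB-ALL and KOPTK1. Cells were transduced with a pLKO.1 lentivirus carrying either a short hairpin RNA (shRNA) against GFP (shGFP, the control) or one against SHQ1 (shSHQ1). SHQ1 is an assembly factor for the H/ACA small nucleolar ribonucleoproteins, and the study asked how its loss affects splicing and survival of leukemia cells. Each of the 4 groups, HPB-ALL shGFP, HPB-ALL shSHQ1, KOPTK1 shGFP and KOPTK1 shSHQ1, holds 3 libraries, and all cells were kept for 48 h in puromycin at 2 µg/ml. Every group is a bulk culture of an established line, and the labels do not say which SHQ1 hairpin was used or whether replicates were separate cultures.

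The columns of single libraries are headed by numbers that match no sample label, so they were not assigned to groups and were not used. No comparison of shGFP with shSHQ1 is therefore made, and nothing below says how these genes responded to loss of SHQ1. The values are the authors' averages over the 6 libraries of a line, control and SHQ1 shRNA together, converted to mean RPKM, a read count scaled to the size of the library (CPM) and then to each kilobase of exon. They carry no SD, the depth of the libraries is unknown, and no difference below was tested against replicate spread. In these bulk samples, fewer cells of a type and less RNA per cell cannot be told apart.

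The T-cell label was checked against 14 markers, of which 12 reached 1 RPKM in both lines, among them the T-cell receptor component CD3D at 295 RPKM in HPB-ALL and 301 RPKM in KOPTK1. CD4 was below 1 RPKM in both lines. In HPB-ALL 4 of the T-cell markers were more than 2-fold lower than in KOPTK1, CD2 at 13.7 against 47.8 RPKM, CD8A at 0.968 against 5.47, RAG1 at 2.13 against 9.55 and DNTT at 11.9 against 57.4. The 5 myeloid markers were all below 1 RPKM, the highest being 0.378 in HPB-ALL and 0.663 in KOPTK1. Of 5 B-cell markers, CD79A reached 43.3 RPKM in HPB-ALL and 16.1 RPKM in KOPTK1, whereas PAX5, the factor that defines B-lineage cells, was at 0.0198 and 0.0191 RPKM. Among 3 erythroid markers, HBA1 alone passed 1 RPKM, at 2.12 and 1.83. HPB-ALL is known as a line that expresses the homeobox gene TLX3, but TLX3 was at 0.0381 RPKM in the libraries labelled HPB-ALL and 0.119 RPKM in those labelled KOPTK1. LMO2, which KOPTK1 is known to express from a rearrangement, was at 1.48 RPKM in the KOPTK1 libraries and 0.175 RPKM in those of HPB-ALL. Of the other T-ALL oncogenes checked, TAL1 was at 42.5 RPKM in HPB-ALL and 19.2 RPKM in KOPTK1, and LMO1 at 3.07 and 1.13 RPKM, whereas NKX2-5 and TLX1 were below 1 RPKM in both. The line names below are therefore those of the labels, and their part in any difference between the tables was not tested.

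Purine and pyrimidine nucleotides are the building blocks of RNA and DNA, and dividing cells assemble them from ribose, amino acids, carbon dioxide and single carbon units carried by folate. Purines are built on phosphoribosyl pyrophosphate (PRPP) to give IMP, which branches to AMP and GMP. Pyrimidines are built as a ring first and joined to PRPP to give UMP and then CTP. Ribonucleotide reductase converts ribonucleotides to deoxyribonucleotides, and thymidylate synthase adds the methyl group of thymidine. Polyamines are small cations made from ornithine that bind nucleic acids. Rapidly dividing leukemic T cells depend on these routes, and purine analogs are a long-standing treatment for acute lymphoblastic leukemia.

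MYC binds the sequence CACGTG, an E-box, and promoters of the genes were therefore searched for it on both strands, which read alike for this palindrome. RefSeq promoters on GRCh38 (250 bases before the transcription start and 50 after it) were found for 30 of the 33 genes, IMPDH2, SHMT2 and ADSL being those without an entry. The E-box letters were present in 12 of 48 promoters, 25%, against 7.26% of all 35116 promoters of the same length. Counted by gene, they were present in 10 of 30 genes, 33.3%, against 13.4% of the 5235 genes that reached 10 RPKM in both lines. The 30 genes were not held to that minimum, and DHODH, which has the E-box, and CTPS2, which has none, lay below it. A gene counted if any of its promoters held the letters. The 30 genes had 48 promoters, beside 35116 promoters for 27305 genes over all. The 33 genes were listed because they are known MYC targets, so the share with an E-box is no independent evidence. A match describes letters and not a bound site. The windows below, read 5′ to 3′ on the strand of the gene with the E-box in capitals, show how close to the start the letters lie.

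ATIC, chr2:215312001-215312030, plus strand: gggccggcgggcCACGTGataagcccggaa
ATIC, chr2:215312076-215312105, plus strand: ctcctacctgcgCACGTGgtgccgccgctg
DHODH, chr16:72008573-72008602, plus strand: gccgctactgcgCACGTGcacccaaccaga
DCTPP1, chr16:30429792-30429821, minus strand: ggagggttcctcCACGTGgtcgggaagcgg
NME1, chr17:51153581-51153608, plus strand: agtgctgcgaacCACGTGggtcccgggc
MTHFD1, chr14:64388326-64388355, plus strand: ccagtccctaagCACGTGggttgggttgtc
MTHFD1L, chr6:150866320-150866349, plus strand: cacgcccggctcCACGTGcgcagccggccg
ODC1, chr2:10448024-10448053, minus strand: ccgggccccgggCACGTGtgcggcgcgcct
ODC1, chr2:10447990-10448019, minus strand: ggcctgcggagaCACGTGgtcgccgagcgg
SRM, chr1:11060200-11060229, minus strand: ccggccgggcccCACGTGgcccctggagcg

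Relative to the RefSeq starts, the E-box began 46 bases before and at base 30 after the start of ATIC, 9 bases before that of DCTPP1, 15 bases before that of MTHFD1 and at base 35 after that of NME1. In ODC1 the E-boxes lay 29 bases before and at base 6 after a RefSeq start 492 bases from the 5′ end of the gene in the table, while the window of the start nearest that end held none. In MTHFD1L a single E-box fell in the windows of 3 starts. The E-boxes of DHODH and SRM lay farther out, 159 and 199 bases before the start. PPAT and PAICS shared a single E-box and are described with the purine genes.

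Nearly all of the synthesis genes were among the more abundant transcripts of both lines. Of 33 genes, 32 reached 1 RPKM in both lines, CTPS2 being the exception. The median over those 32 was 40.3 RPKM in HPB-ALL and 32.6 RPKM in KOPTK1, beside medians of 6.10 RPKM over the 23274 genes at or above 1 RPKM in HPB-ALL and 5.92 RPKM over the 24635 such genes in KOPTK1. The median gene stood at percentile 92.7 of those genes in HPB-ALL and 91.1 in KOPTK1. In HPB-ALL 21 genes, and in KOPTK1 19 genes, were among the top 10% by RPKM. Of the genes at or above 1 RPKM, only 11580 in HPB-ALL and 11774 in KOPTK1 had a MANE Select transcript. That is a single reference transcript per gene, and all 33 genes had it. Scaled to its length, the median of the 32 was 56.2 RPKM in HPB-ALL, beside 13.3 RPKM over the genes that had such a transcript. In KOPTK1 it was 41.1 beside 12.7 RPKM, a smaller excess than in the medians above. Summed over the 33 genes, the level was 5508 CPM in HPB-ALL and 4461 CPM in KOPTK1.

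The order of levels was close to the same in both lines. With the exon lengths of the table, the top 7 places were held in the same order in each, by TYMS, RRM2, IMPDH2, RRM1, SRM, ODC1 and PAICS. Among all 33 genes, 12 held the same rank in both lines, CTPS2 in last place included. The largest shift was 6 places, for NME1. With MANE Select lengths in their place, the top 7 were no longer in the same order in both lines, RRM2 standing above TYMS in KOPTK1. Spearman's rho of RPKM between the lines was 0.968 across the 32 genes, beside 0.936 across the 22430 genes at or above 1 RPKM in both. These are correlations across genes, which are not independent replicates, and the points share gene length and the base composition of each gene. Whether neighbours in this order differ beyond replicate spread could not be asked, since no spread was available.

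**Figure D1:**
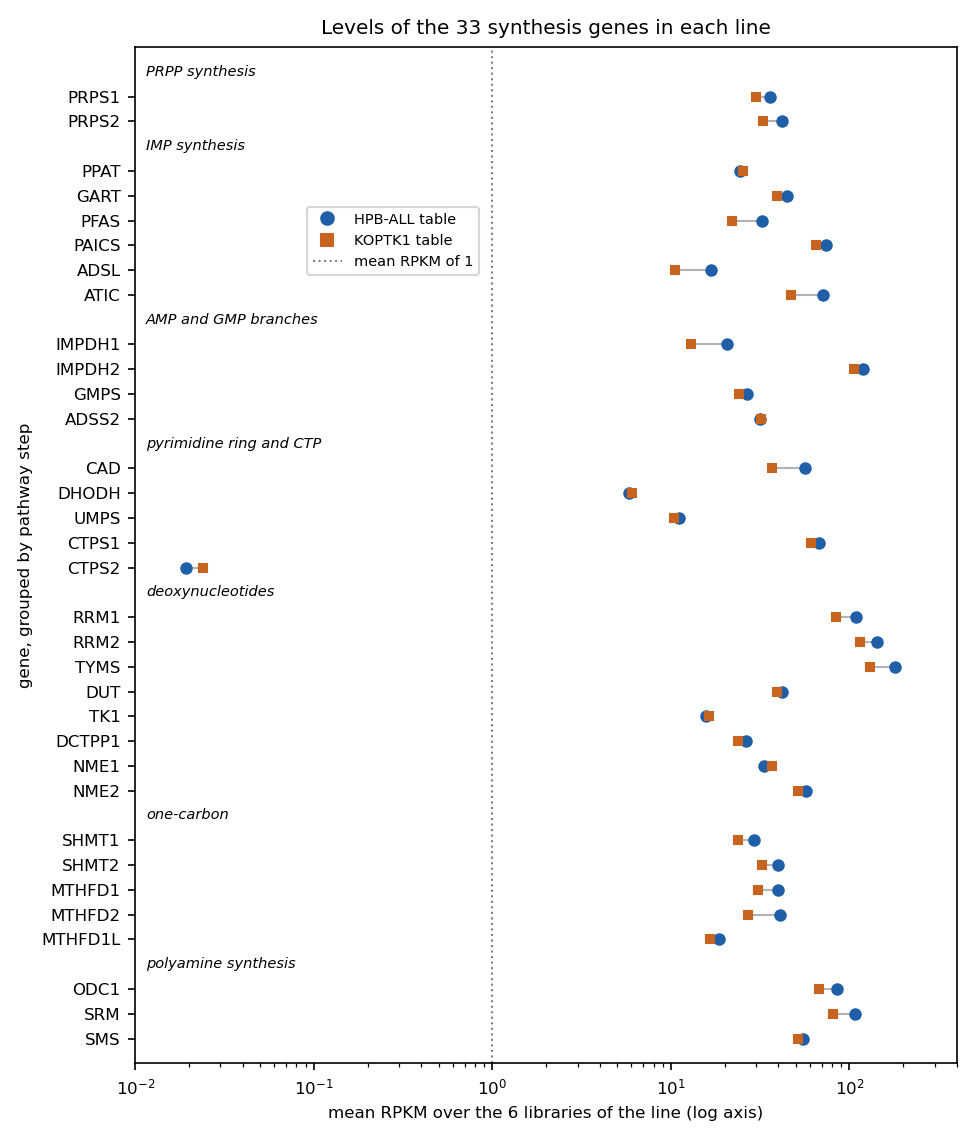
Mean RPKM (log axis) of each of the 33 genes over the 6 libraries of a line, grouped by pathway step, with circles for HPB-ALL and squares for KOPTK1 joined by a line. The dotted line marks 1 RPKM, below which CTPS2 lies alone, and TYMS, RRM2 and IMPDH2 lie farthest to the right in both lines.

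PRPP, the activated ribose used by both purine and pyrimidine synthesis, is made by PRPP synthetases, both encoded on the X chromosome. PRPS1 was at 35.7 RPKM in HPB-ALL and 29.8 RPKM in KOPTK1. PRPS2 was at 41.7 RPKM in HPB-ALL and 32.8 RPKM in KOPTK1. The isozymes were thus present at similar levels, PRPS2 over PRPS1 being 1.17 in HPB-ALL and 1.10 in KOPTK1.

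The 6 enzymes from PRPP to IMP ranged from 16.9 to 73.7 RPKM in HPB-ALL and from 10.5 to 65.2 RPKM in KOPTK1. PPAT, the amidotransferase that commits PRPP to purines, was at 24.4 RPKM in HPB-ALL and 25.3 RPKM in KOPTK1. GART, which carries 3 activities of the pathway on a single protein, was at 44.6 and 39.4 RPKM. The most abundant of the 6 in both lines was PAICS, which carboxylates the purine intermediate and then adds aspartate, at 73.7 RPKM in HPB-ALL and 65.2 RPKM in KOPTK1. PFAS, the amidotransferase that precedes ring closure, was at 32.5 RPKM in HPB-ALL and 22.0 RPKM in KOPTK1. ATIC, which completes the purine ring, was at 70.8 and 46.8 RPKM. The lowest of the 6 was ADSL, the lyase that releases fumarate in IMP synthesis and again in AMP synthesis, at 16.9 RPKM in HPB-ALL and 10.5 RPKM in KOPTK1. PAICS exceeded ADSL 4.37-fold in HPB-ALL and 6.18-fold in KOPTK1.

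PPAT and PAICS lie head to head on chromosome 4, PPAT on the minus strand at chr4:56393362-56435615 and PAICS on the plus strand at chr4:56435741-56464579 (GRCh38). A gap of 125 bases separates their 5′ ends in the deposited table. The RefSeq starts are 136 bases apart, so that the 300-base promoter windows of the genes share 236 bases. The stretch printed next, chr4:56435502-56435801 on the plus strand, holds both starts, with the shared E-box in capitals.

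PAICS and PPAT: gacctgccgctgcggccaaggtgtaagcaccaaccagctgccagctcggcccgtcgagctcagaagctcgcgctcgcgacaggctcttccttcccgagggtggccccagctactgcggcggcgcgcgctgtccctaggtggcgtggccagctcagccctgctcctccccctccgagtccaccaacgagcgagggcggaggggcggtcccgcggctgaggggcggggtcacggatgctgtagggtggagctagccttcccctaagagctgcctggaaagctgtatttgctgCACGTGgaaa

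The shared E-box lies at chr4:56435792-56435797, 182 bases before the start of PPAT and at base 41 after that of PAICS. The levels of the pair were unequal, PAICS exceeding PPAT 3.02-fold in HPB-ALL and 2.57-fold in KOPTK1. Between the lines, PAICS was at log2 0.18 above KOPTK1 in HPB-ALL and PPAT at log2 -0.05.

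At the branch from IMP, IMPDH catalyses the rate-limiting step toward GMP and exists as a pair of isozymes. IMPDH2, the form known to predominate in dividing lymphocytes, was at 119 RPKM in HPB-ALL and 105 RPKM in KOPTK1. IMPDH1 was at 20.5 RPKM in HPB-ALL and 13.0 RPKM in KOPTK1. IMPDH2 therefore exceeded IMPDH1 5.81-fold in HPB-ALL and 8.09-fold in KOPTK1. GMPS, which aminates XMP to GMP, was at 26.7 and 23.9 RPKM. ADSS2, which starts the branch to AMP, was at 31.7 and 31.9 RPKM.

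The pyrimidine ring genes differed widely among themselves. CAD, whose single protein carries the opening 3 activities of the pathway, was at 56.5 RPKM in HPB-ALL and 36.6 RPKM in KOPTK1. DHODH, the mitochondrial dehydrogenase that follows it, was at 5.85 RPKM in HPB-ALL and 6.05 RPKM in KOPTK1, the lowest of the 32 genes above 1 RPKM. UMPS, which joins the ring to PRPP and yields UMP, was at 11.1 and 10.4 RPKM. CAD exceeded DHODH 9.67-fold in HPB-ALL and 6.05-fold in KOPTK1. It exceeded UMPS 5.08-fold and 3.51-fold.

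CTP synthase, which aminates UTP to CTP, was represented by CTPS1 alone. CTPS1, the isozyme that proliferating lymphocytes are known to need, was at 67.2 RPKM in HPB-ALL and 61.0 RPKM in KOPTK1. CTPS2 was at 0.0193 RPKM in HPB-ALL and 0.0241 RPKM in KOPTK1. In reads, CTPS2 stood at a mean of 0.0935 CPM in HPB-ALL, close to the lowest value listed for any gene of that table, 0.0488 CPM. In KOPTK1 it stood at 0.117 CPM, where the lowest value was 0.0669 CPM. The lowest value was shared by 13164 genes in HPB-ALL and by 12035 genes in KOPTK1. No fold change between lines is given for CTPS2, and whether it was transcribed below this level could not be seen.

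CTPS2 lies on the minus strand at chrX:16588003-16712936 (GRCh38). Its neighbours within 250 kb, a window chosen after the levels were seen, were not uniformly low. SYAP1, which starts 6695 bases from the 5′ end of CTPS2 on the opposite strand, was at 7.35 RPKM in HPB-ALL and 7.05 RPKM in KOPTK1. TXLNG was at 17.0 and 16.4 RPKM, and the histone-binding protein gene RBBP7 at 51.3 and 52.4 RPKM. S100G, which lies inside the CTPS2 locus on the opposite strand, was at 0.130 and 0.147 RPKM. REPS2, on the far side of RBBP7, was at 0.0225 and 0.0245 RPKM.

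The starts of the CTP synthase genes are printed to compare an abundant and a near-silent isozyme, each as 150 bases ending 50 bases after the RefSeq start nearest the 5′ end of the gene, with CpG dinucleotides in capitals. The CTPS1 stretch is chr1:40979596-40979745 on the plus strand and the CTPS2 stretch chrX:16712620-16712769 on the minus strand.

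CTPS1: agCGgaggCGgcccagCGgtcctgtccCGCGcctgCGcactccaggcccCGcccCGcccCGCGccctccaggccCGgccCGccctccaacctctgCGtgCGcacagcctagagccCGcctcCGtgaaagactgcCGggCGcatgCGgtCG
CTPS2: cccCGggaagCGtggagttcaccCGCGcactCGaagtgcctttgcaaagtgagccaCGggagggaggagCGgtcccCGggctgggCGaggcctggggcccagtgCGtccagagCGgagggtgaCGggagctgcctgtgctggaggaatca

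Both stretches are rich in CpG, with 20 CpG and 78% GC for CTPS1 and 12 CpG and 69.3% GC for CTPS2. Neither holds CACGTG. DNA methylation was not measured.

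The deoxynucleotide genes ranged from 15.7 to 179 RPKM in HPB-ALL and from 16.3 to 130 RPKM in KOPTK1. TYMS, thymidylate synthase, was at 179 RPKM in HPB-ALL and 130 RPKM in KOPTK1, the top value of the 33 in each line with the exon lengths of the table. Of the ribonucleotide reductase subunits, the catalytic subunit RRM1 was at 109 RPKM in HPB-ALL and 83.7 RPKM in KOPTK1. The small subunit RRM2, made in S phase, was at 143 and 115 RPKM. RRM2 over RRM1 was 1.31 in HPB-ALL and 1.37 in KOPTK1. RRM2B, the alternative small subunit used outside S phase, was far lower, RRM2 exceeding it 17.5-fold in HPB-ALL and 11.7-fold in KOPTK1.

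Thymidine can also be salvaged from outside the cell by thymidine kinase. TK1, the cytosolic form, was at 15.7 RPKM in HPB-ALL and 16.3 RPKM in KOPTK1, so that TYMS exceeded it 11.4-fold in HPB-ALL and 7.97-fold in KOPTK1. DUT, the dUTPase that supplies dUMP to TYMS and keeps uracil out of DNA, was at 42.0 and 39.3 RPKM. DCTPP1, a pyrophosphatase that removes excess and modified dCTP, was at 26.4 and 23.6 RPKM. The nucleoside diphosphate kinases, which make triphosphates from diphosphates, were at 33.1 RPKM in HPB-ALL and 36.8 RPKM in KOPTK1 for NME1. For NME2 the levels were 57.2 and 51.6 RPKM.

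The one-carbon genes, which load single carbons from serine onto folate, ranged from 18.6 to 40.7 RPKM in HPB-ALL and from 16.5 to 32.5 RPKM in KOPTK1. SHMT2, the mitochondrial serine hydroxymethyltransferase, was at 39.9 RPKM in HPB-ALL and 32.5 RPKM in KOPTK1. Its cytosolic counterpart SHMT1 was at 29.3 and 23.9 RPKM, so that SHMT2 over SHMT1 was 1.36 in both lines. MTHFD2, the mitochondrial dehydrogenase and cyclohydrolase known to be low in most resting adult tissue, was at 40.7 RPKM in HPB-ALL and 26.9 RPKM in KOPTK1. MTHFD1L, which releases formate from mitochondria, was at 18.6 and 16.5 RPKM. MTHFD1, the cytosolic enzyme that takes formate up again, was at 40.0 and 30.7 RPKM. All 5 genes were at a higher level in HPB-ALL, by log2 0.17 to 0.60.

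Polyamine synthesis was likewise abundant. ODC1, ornithine decarboxylase, the rate-limiting enzyme and a long-known MYC target, was at 84.9 RPKM in HPB-ALL and 67.7 RPKM in KOPTK1. SRM, spermidine synthase, was at 108 and 80.5 RPKM. SMS, spermine synthase, was at 54.8 and 51.7 RPKM. SRM exceeded SMS 1.97-fold in HPB-ALL and 1.56-fold in KOPTK1.

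Most of the genes stood at a modestly higher level in HPB-ALL than in KOPTK1, and none differed 2-fold. Of the 32 genes above 1 RPKM, 27 were higher in HPB-ALL, where 45.6% of all 25479 genes at or above 1 RPKM in either line were. At a minimum of 10 RPKM in either line the counts were 27 of 31 genes, beside 55% of all genes. None of the 32 was past 2-fold in either direction, beside 11.9% of all genes, and none of the 31 at the stricter minimum, beside 5.64%. Past 1.5-fold, 5 of the 32 genes were higher in HPB-ALL, beside 9.73% of all genes at 1 RPKM in either line. None was lower, beside 16.8%. The 1.5-fold shares were not counted at the stricter minimum. The 2 tables were normalized separately and the averages have no replicates behind them here, so these shares are descriptions and were not tested.

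The 5 genes past 1.5-fold were ADSL at log2 0.68, IMPDH1 at 0.65, CAD at 0.63, ATIC at 0.60 and MTHFD2 at 0.60, and PFAS at 0.57 lay just short of that fold. Of the 6 enzymes of IMP synthesis, ADSL and ATIC were thus past 1.5-fold, whereas GART and PAICS were at log2 0.18 and PPAT at -0.05. The others past that fold were the minor IMPDH isozyme, the opening enzyme of pyrimidine synthesis and a mitochondrial folate enzyme. The 5 genes that were lower in HPB-ALL were NME1 at log2 -0.15, PPAT and TK1 at -0.05, DHODH at -0.05 and ADSS2 at -0.01. Across the 32 genes the median was log2 0.22 with an SD across genes of 0.23, beside a median of 0.05 and an SD of 0.65 over genes at or above 10 RPKM in either line.

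**Figure D2:**
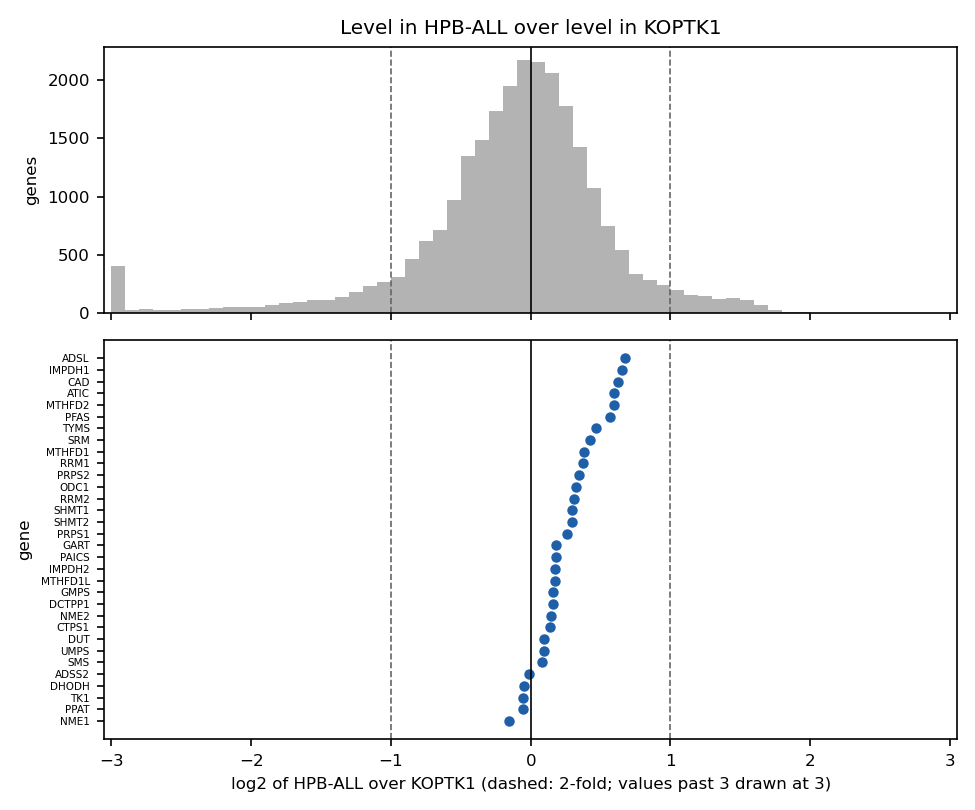
Log2 ratio of mean levels, HPB-ALL to KOPTK1, as a histogram over the 25479 genes at or above 1 RPKM in either line (upper panel, number of genes per bin) and for each of the 32 synthesis genes (lower panel). Dashed lines mark 2-fold, inside which all 32 genes lie, with 27 of them to the right of 0.

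The distribution over all genes was lopsided. Of the 8433 genes at or above 10 RPKM in HPB-ALL, 1 stood 4-fold or more above KOPTK1, the immunoglobulin diversity segment IGHD5-5 at 4.05-fold. A minimum in RPKM is per length, so a very short gene can pass it on few reads, and the reads behind IGHD5-5 were not examined. Of the 8619 genes at or above 10 RPKM in KOPTK1, 143 stood 4-fold or more above HPB-ALL, and the largest ratio was 67.6-fold. The largest ratios were thus far smaller toward HPB-ALL than toward KOPTK1. The part of this in the values above was not tested, and neither was whether the libraries of one line held RNA of the other.

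MYC itself was at 71.9 RPKM in HPB-ALL and 86.4 RPKM in KOPTK1, log2 -0.26. Its relative MYCN, which binds the same E-box, was at 12.3 RPKM in HPB-ALL and 4.10 RPKM in KOPTK1, log2 1.58. SHQ1 was at 59.5 and 43.3 RPKM, averaged over cells with and without the SHQ1 hairpin. The MYC and MYCN values are averages of the same kind, and any part of either gene in the levels above was not tested.

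Other genes of the same pathways that reached 1 RPKM stayed within 2-fold between the lines. Of 26 genes of nucleotide salvage and interconversion, 23 were at or above 1 RPKM in either line, of which 15 were higher in HPB-ALL, with a median of log2 0.16. Of 18 folate, serine and methionine genes, 16 were at or above 1 RPKM and 12 of these were higher in HPB-ALL, with a median of log2 0.23. Of 10 polyamine turnover and control genes, 9 were at or above 1 RPKM and 5 of these were higher in HPB-ALL, with a median of log2 0.13. Beside these counts, 45.6% of all genes at 1 RPKM in either line were higher in HPB-ALL, and 55% of those at 10 RPKM. None of these 48 genes was past 2-fold, against the 11.9% of all genes given above. All 48 reached 1 RPKM in both lines, and over all such genes the share was 6.94%. Of the listed genes below 1 RPKM, SAMHD1 at log2 -1.89 and ALDH1L2 at log2 -1.21 were past 2-fold lower in HPB-ALL.

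A few genes of these lists are named after their values were seen. ADA, adenosine deaminase, which protects T cells from deoxyadenosine, was at 359 RPKM in HPB-ALL and 460 RPKM in KOPTK1, above each of the 33 synthesis genes. SAMHD1, the triphosphohydrolase that degrades deoxynucleotides, was at 0.107 and 0.397 RPKM. SAT1, which acetylates polyamines for export and breakdown, was at 8.31 RPKM in HPB-ALL and 16.2 RPKM in KOPTK1, log2 -0.96. PSAT1, of serine synthesis, was at 49.3 and 29.5 RPKM, log2 0.74.

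Levels per length depend on which exons count as the gene. The deposited table sums all annotated exons, and with the length of the single MANE Select transcript (GENCODE release 44) in its place the level came out 2.21-fold higher for NME1, 2.16-fold for NME2 and 2.19-fold for MTHFD1. In HPB-ALL this moved NME2 from place 10 to place 3, MTHFD1 from 17 to 9 and NME1 from 20 to 12. TYMS, RRM2 and IMPDH2 stayed among the top 4 in both lines, but in KOPTK1 RRM2 at 136 RPKM then stood above TYMS at 134 RPKM. Ratios between genes within a line moved as well, SHMT2 over SHMT1 from 1.36 to 1.71 in both lines. IMPDH2 over IMPDH1 moved from 5.81 to 5.07 in HPB-ALL and from 8.09 to 7.06 in KOPTK1. The ratio of a gene between lines does not depend on length.

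**Figure D3:**
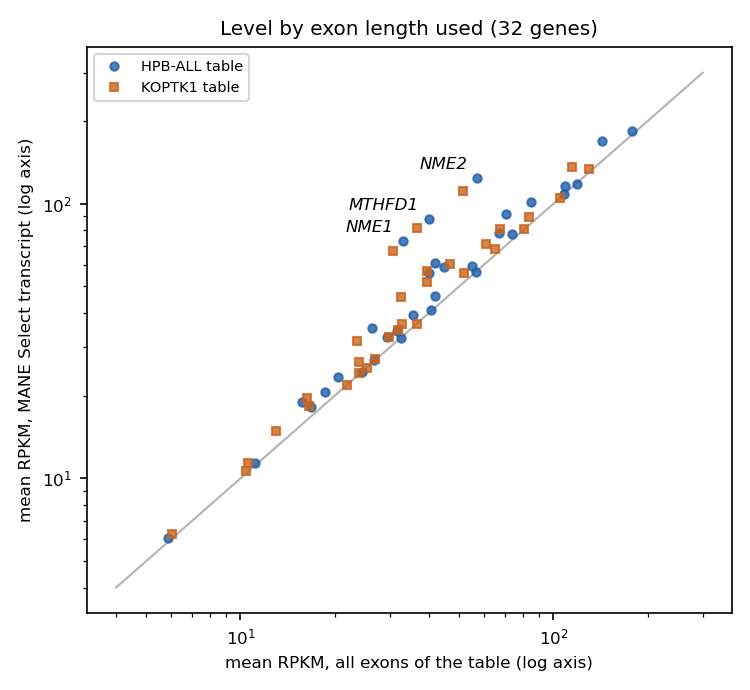
Mean RPKM of the 32 genes above 1 RPKM with the summed exon length of the table (horizontal log axis) against that with the MANE Select transcript length (vertical log axis), with circles for HPB-ALL, squares for KOPTK1 and the diagonal where both are equal. Most genes lie near the diagonal, while NME1, NME2 and MTHFD1 lie more than 2-fold above it.

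Reads of several genes could not be kept apart from those of overlapping genes or copies. The library kit does not mark strand, and 12 of the 33 genes share more than 5% of their exon bases with another annotated gene. TYMS shares 28.0% of its exon bases with ENOSF1 on the opposite strand, which was at 52.0 RPKM in HPB-ALL and 38.5 RPKM in KOPTK1. DCTPP1 shares 42.1% with ZNF771 and MTHFD2 29.7% with SLC4A5, both on the opposite strand and both below 4 RPKM. RRM2 shares 27.9% with ENSG00000284681 on its own strand, listed at 92.6 RPKM in HPB-ALL and 83.4 RPKM in KOPTK1. ADSL shares 28.4% with ENSG00000284431 on its own strand, listed at 23.0 and 15.2 RPKM, above ADSL itself. NME1 and NME2 lie in tandem 3006 bases apart on chromosome 17, and the read-through gene NME1-NME2, which holds 32.4% of the exon bases of NME1 and 40.4% of those of NME2, was listed at 95.8 RPKM in HPB-ALL and 91.9 RPKM in KOPTK1. The levels of NME1 and NME2 are uncertain to that extent.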

How the data were processed

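RNA-seq tables of 12 libraries from HPB-ALL and KOPTK1 cells were used, 1 table per line. Per the submitters' processing notes, the authors used Trimmomatic 0.36, STAR 2.5.4b, Picard 2.18.7, featureCounts 1.6.2 and edgeR 3.22.3 with build hg38. How reads that map to several places or to overlapping genes were counted is not given in the sources used here. The value used for each gene is the average log2 CPM that the authors deposited over the 6 libraries of a line, with the exon length from the same table. The 12 columns of single libraries are headed by numbers only and were not used, nor were the authors' comparison columns (log fold change, F, p-value and FDR). The planned comparison of shGFP with shSHQ1 was therefore not run.

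Mean RPKM was computed as CPM, 2 to the power of the deposited log2 value, divided by exon length in kb. The authors formed the average before this conversion, so the result need not equal the mean of the libraries' RPKM. Genes at or above 1 RPKM in either line were compared, and a ratio past 2-fold was counted, without a test. Depth is unknown, so no counting interval is given. Symbols were found for 95.9% of identifiers. Promoters came from RefSeq (GRCh38.p14). Python 3.11.15, pandas 2.3.3 and scipy 1.17.1 were used, and the counting of ratios was tested on simulated data. All 33 genes are named. The genes and lists were chosen with earlier results of these data known. Added after values were seen were the isozyme pairs, the window around CTPS2, the MANE lengths, the minimum of 1 RPKM in both lines, the further promoter letters and the lopsidedness of the ratio between lines. Most genes of the other pathway lists are counted but not named, and a result that is withheld is not reported here.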

Additional observations from a re-analysis of the deposited data

How the results depend on the processing

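No paired analysis was possible because the single-library columns carry no replicate number of the labels and no test was run. For the same reason the alternatives that need single libraries (leaving out a replicate, a replicate block, another pseudocount for the shRNA comparison, a median over libraries) were not run. No gene of the 32 passed 2-fold without a filter, at 10 RPKM, with centred tables, on log2(RPKM + 1) or at 1 RPKM in both lines, and 5 did at a fold of 1.5. The share of all genes past the fold was 11.9%, and became 5.64% at 10 RPKM in either line, 5.31% on log2(RPKM + 1), 26.6% at a fold of 1.5 and 6.94% with 1 RPKM in both lines. The number of genes higher in HPB-ALL was 27 in each of these and 28 with centred tables. The median percentile of the 32 genes in HPB-ALL was 92.7 by RPKM, 91.3 by CPM and 90.6 with MANE lengths. In KOPTK1 it was 91.1, 89.3 and 86.6. The MANE percentiles were taken among only the genes at 1 RPKM with a MANE length, 11580 in HPB-ALL and 11774 in KOPTK1. They therefore differ from the others in the genes ranked as well as in the length. With no replicate spread at hand, a move of under 0.1 log2 or 5 percentile points was taken as no change. This tolerance was set after the values were seen, and all 159 single-gene ratios under alternatives stayed within it. A filter cannot change the ratio of a gene, and centring moves every ratio by the same amount. Only log2(RPKM + 1) could therefore move genes singly, and the count of 159 is no measure of robustness. What depth limits is unknown, CTPS2 apart.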

Other observations

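Further promoter letters were searched on both strands after the data were seen, in the same 30 genes with a RefSeq promoter. They are given as shares beside the genes at or above 10 RPKM in both lines, a minimum that DHODH and CTPS2 did not reach. Letters bound by E2F factors (TTTCCCGC, TTTGGCGC, TTTCGCGC or TTTGCCGC) were present in 4 genes, DUT, GART, PRPS2 and TYMS, or 13.3%, beside 8.21%. The CCAAT box was present in 14 genes, 46.7%, beside 45.1%. The GC box GGGCGG was present in 25 genes, 83.3%, beside 77.5%. The TATA box TATAAA was present in 2 genes, GART and TK1, or 6.67%, beside 7.64%. The NRF1 letters GCGCATGC were present in 2 genes, CTPS1 and MTHFD1, or 6.67%, beside 7.56%. The median GC content over the 48 promoters of these genes was 68.5%, beside 58.7% over all promoters. For the genes at or above 10 RPKM it was 64.7%, taken over genes by the mean of each gene's promoters and so not the same measure.

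Of 52 annotated processed copies of 15 of the synthesis genes, 11 were at or above 1 RPKM in either line. The highest was DUTP2, at 16.3 RPKM in HPB-ALL and 28.6 RPKM in KOPTK1, where the parent DUT was at 42.0 and 39.3 RPKM. How reads shared by DUT and its copies were counted is not given in the sources used here, and the level of DUT is uncertain to that extent.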
